A study of Mus musculus with 24 samples.

Results

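Circadian clock genes were examined in the hippocampus of CBP-ifKOs and control littermates kept in a standard cage (SC) or in an enriched environment (EE). The 10 genes were Arntl, Clock, Npas2, Per1, Per2, Per3, Cry1, Cry2, Nr1d1 and Dbp. They were taken by their Ensembl identifiers from a count table of 55471 genes, and all 10 were found and passed the filter on low counts. Their levels were examined in each mouse, across genotype and housing, and as a check of sampling time, because the labels give no hour of tissue collection.

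The molecular clock is a feedback loop. The proteins of Arntl (also called Bmal1) and Clock, or its relative Npas2, pair and activate the Per and Cry genes, whose proteins then repress that pair. Nr1d1 (REV-ERBα) is activated by the same pair and represses Arntl, and Dbp is an output factor whose transcript swings widely over the day in most tissues. Brain regions outside the suprachiasmatic nucleus, among them the hippocampus, carry clocks of their own, with Arntl running out of phase with Per, Nr1d1 and Dbp. CBP, encoded by Crebbp, is a lysine acetyltransferase and coactivator.

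There were 12 female mice of the C57BL/6 strain as labelled (C57BL/6J in the study's methods), aged 3 to 6 months, with 3 in each of 4 groups. CBP-ifKOs carried floxed Crebbp alleles and the CaMKIIα-creERT2 transgene, whose promoter is active in forebrain excitatory neurons, so other hippocampal cells kept an intact gene, and the recombined allele still encodes a truncated CBP. Control littermates lacked the transgene. Every mouse received 5 intragastric administrations of tamoxifen (20 mg/mL in corn oil), controls included. EE-housed mice lived for a month in enriched cages.

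The controls held between 26874015 and 27971488 counts and the CBP-ifKOs between 28582210 and 37448388. All counts were even in the 6 CBP-ifKO libraries and in none of the 6 control libraries, so the distinct reads behind the CBP-ifKO totals are not known. Genes with a count above 0 numbered 25981 to 26608 in controls and 23843 to 25225 in CBP-ifKOs. This difference in counts follows genotype, so its part in a genotype change cannot be told apart from that of CBP loss. The tests of genotype and housing were also run with the CBP-ifKO counts halved, which rescales these libraries but does not remove the difference. Crebbp, the targeted gene, lay between 69.6 and 81.9 CPM (counts scaled by library size) in the 6 controls and between 44.5 and 51.5 CPM in the 6 CBP-ifKOs. One EE-housed control library held 1238 CPM of 4 choroid plexus markers, against at most 61.2 CPM in any other library. Summed CPM of 4 CA1 and CA3 pyramidal cell markers, none at 0, was 462 to 525 in controls and 318 to 354 in CBP-ifKOs. Sums of 3 dentate granule cell markers (189 to 231 and 129.9 to 176.5), 4 interneuron markers (784 to 868 and 723 to 777) and 4 astrocyte markers (1204 to 1387 and 1079 to 1202) were also lower in all 6 CBP-ifKOs than in all 6 controls. Sums of microglial (211 to 228 and 191 to 221), oligodendrocyte, endothelial, and thalamic and striatal markers overlapped, and no marker was at 0. Among granule cell markers Prox1 was at 103 ± 3.35 CPM in SC-housed controls and 107 ± 7.03 in SC-housed CBP-ifKOs (SD, n = 3), with an averaged log2 change of −0.01 ± 0.07. C1ql2 was at 66.4 ± 7.41 and 21.8 ± 3.92 CPM in the same groups, with an averaged change of −1.76 ± 0.10. Most of the lower granule cell sum in SC was thus this 1 gene. Dsp was at 39.6 ± 3.26 and 36.5 ± 2.97 CPM in those SC groups. In EE, controls and CBP-ifKOs were at 63.9 ± 11.1 and 16.9 ± 1.895 CPM for C1ql2 and at 45.5 ± 7.545 and 30.7 ± 3.69 for Dsp. In EE the astrocyte marker Slc1a3 was at 753 ± 80.9 CPM in controls and 618 ± 6.84 in CBP-ifKOs, and Gfap at 303 ± 47.9 and 303 ± 20.9. With both housings averaged, where 10.3% of all genes were called lower, edgeR called lower 4 of the 4 pyramidal, 2 of the 3 granule cell, 1 of the 4 interneuron, 1 of the 4 astrocyte, 2 of the 4 microglial, 1 of the 4 choroid plexus and 1 of the 4 thalamic and striatal markers, and 0 of the oligodendrocyte and endothelial ones (0 and 2 at an unadjusted p below 0.05, as were 29.9% of all genes). In whole tissue, fewer cells of a type and less RNA per cell cannot be told apart, and the part of these shifts in the results below was not tested. In aged CBP-ifKOs, not the mice used here, the paper reports no apparent neuronal loss in CA1. It also lists C1ql2 among the transcripts reduced in CBP-ifKOs.

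Promoter windows of the 3 clock genes that changed with genotype are shown first, since the clock's own factors act on such regions. RefSeq windows (build GRCm38.p6, from 250 bases before to 50 bases after a start) were found for 9 of the 10 genes, as 13 windows. Both strands were searched for the E-box CACGTG, the related CACGTT, the D-box TTANGTAA, the ROR element and the cAMP response element TGACGTCA. Capitals mark the matches in the sequences, written 5′ to 3′ on the strand of the gene: a ROR element in 1 of the 2 Arntl windows (chr7:113207261-113207560, plus strand), and CACGTT read on the opposite strand in Nr1d1 (chr11:98775328-98775627, minus strand) and Cry2 (chr2:92434020-92434319, minus strand).
Arntl: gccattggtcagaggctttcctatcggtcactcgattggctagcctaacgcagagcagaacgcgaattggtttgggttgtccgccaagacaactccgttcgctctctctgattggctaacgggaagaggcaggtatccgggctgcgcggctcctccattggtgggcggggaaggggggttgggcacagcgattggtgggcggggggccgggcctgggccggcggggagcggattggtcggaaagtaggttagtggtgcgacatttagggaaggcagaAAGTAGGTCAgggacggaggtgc
Nr1d1: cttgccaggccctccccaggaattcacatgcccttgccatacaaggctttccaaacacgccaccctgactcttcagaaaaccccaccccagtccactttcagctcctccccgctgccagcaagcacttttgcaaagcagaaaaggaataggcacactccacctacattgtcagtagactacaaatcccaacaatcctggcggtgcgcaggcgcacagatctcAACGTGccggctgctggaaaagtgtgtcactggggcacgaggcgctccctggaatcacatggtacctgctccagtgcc
Cry2: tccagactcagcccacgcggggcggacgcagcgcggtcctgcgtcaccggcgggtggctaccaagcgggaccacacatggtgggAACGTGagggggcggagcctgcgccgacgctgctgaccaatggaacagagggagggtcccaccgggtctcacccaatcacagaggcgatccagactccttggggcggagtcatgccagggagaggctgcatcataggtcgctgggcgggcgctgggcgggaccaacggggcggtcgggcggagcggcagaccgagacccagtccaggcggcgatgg
The ROR element, the kind of site through which ROR factors activate and REV-ERB factors repress, began 28 bases after the Arntl start used in that window and stood in 0.606% of all 32851 windows. The CACGTT match began 28 bases before the Nr1d1 start and 166 bases before that of Cry2, and 4.68% of windows held one. The E-box was matched in Cry1 and Per1 (7.15% of windows), CACGTT also in Cry1, and the D-box at 2 places in Per3 (2.32% of windows). None of the 13 windows held the cAMP response element, which 1.79% of windows did. The other Arntl window (chr7:113207215-113207514) held none of the motifs. These matches describe letters in short windows, not bound sites.

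Per kilobase of gene, Nr1d1 and Cry2 were the most abundant clock transcripts and Cry1 the least. In SC-housed controls the level was 23.5 ± 2.09 CPM per kilobase for Nr1d1 (SD, n = 3) and 22.4 ± 1.17 for Cry2, and the ranges of these genes overlapped. Per1 followed at 12.8 ± 2.597 CPM per kilobase, apart from its neighbours in the order. Dbp (8.20 ± 1.38), Per2 (7.43 ± 0.518) and Clock (7.27 ± 0.358) overlapped in turn, as did Arntl (6.19 ± 0.334), Per3 (6.02 ± 0.761) and Npas2 (5.97 ± 0.383). Cry1 was lowest, at 3.72 ± 0.377 CPM per kilobase, and did not overlap its neighbour. In EE-housed CBP-ifKOs, Nr1d1, Cry2 and Per1 again led and Cry1 was again last, and each gene from Dbp down to Cry1 overlapped the next.

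**Figure D1:**
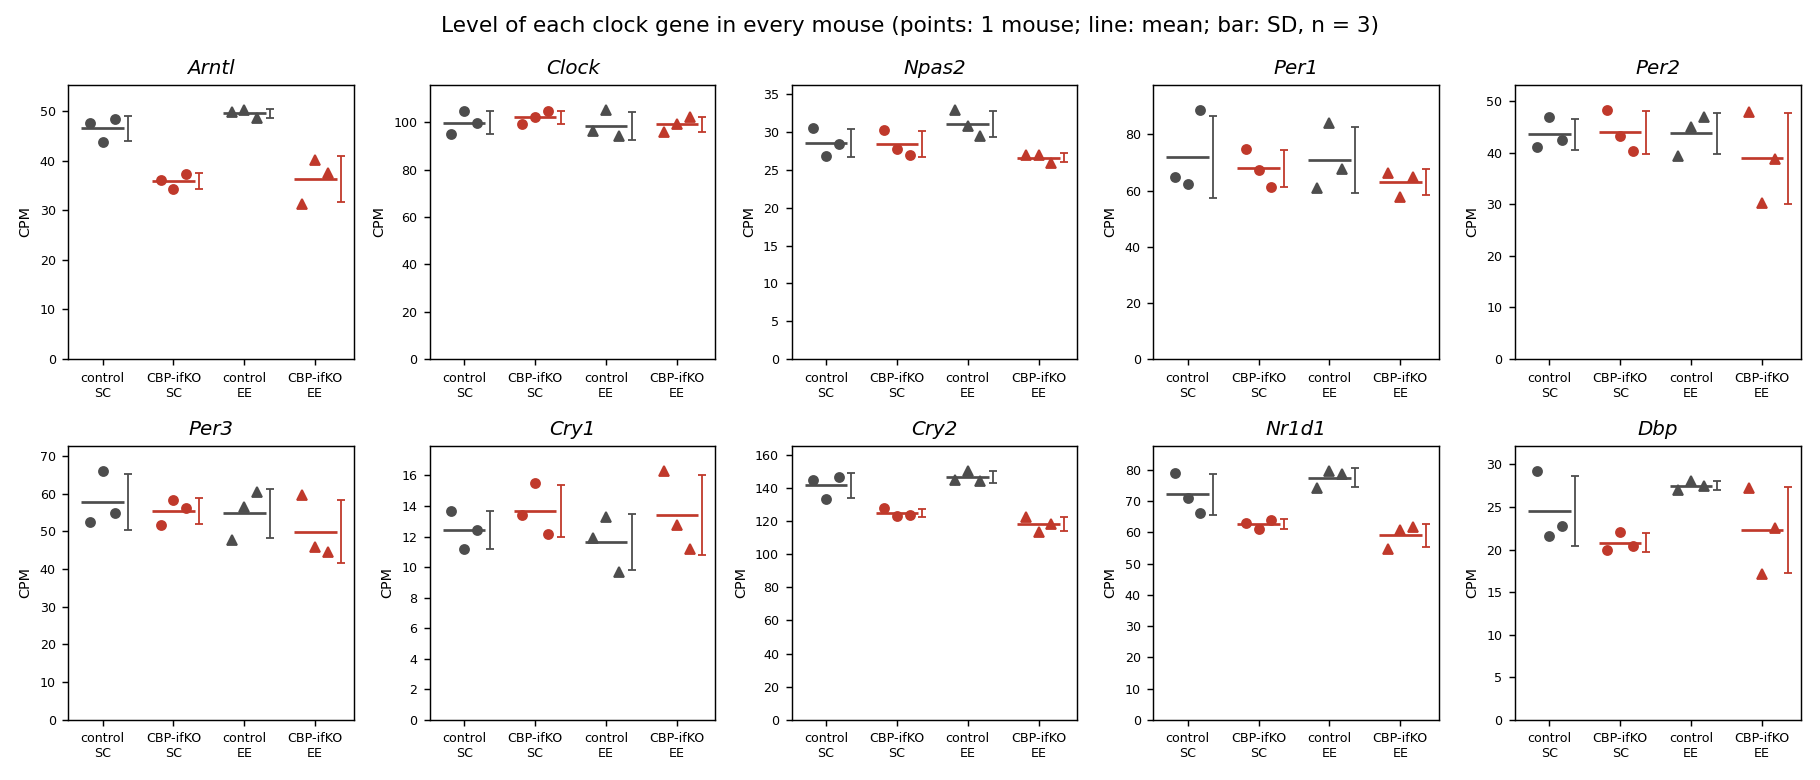
CPM of each of the 10 clock genes (vertical axes from 0) in every mouse of the 4 groups; points are single mice, lines group means and bars the SD of 3 mice, with controls grey and CBP-ifKOs red. Arntl, Cry2 and Nr1d1 were lower in all 6 CBP-ifKOs than in all 6 controls, while Clock spanned only 1.12-fold over the 12 mice. The share of all genes apart in this way over both housings was not computed. Within 1 housing the genotypes did not overlap for 25.9% (SC) and 25.3% (EE) of all genes.

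The first question was whether loss of CBP changes the clock genes. Arntl, Cry2 and Nr1d1 were lower in CBP-ifKOs, and the Per genes, Clock, Npas2, Cry1 and Dbp did not pass the test in either housing. With both housings averaged, 3 of the 10 genes were called at an edgeR adjusted p below 0.05, all lower, and 0 were called higher. Among all genes tested in that comparison 16.9% were called, 10.3% lower and 6.64% higher. The median log2 change of the 10 was −0.12, against 0.00 over all genes, with 8 estimates below 0 and 2 above.

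Among the activators, Arntl (chr7:113207465-113314126, GRCm38, plus strand) encodes the shared partner of the loop. In SC its CPM was 47.6, 43.7 and 48.4 in the 3 controls and 36.2, 34.2 and 37.4 in the 3 CBP-ifKOs. In EE it was 49.9, 50.3 and 48.6 in controls and 31.3, 40.2 and 37.6 in CBP-ifKOs. The lowest control thus lay above the highest CBP-ifKO over both housings. The log2 change was −0.37 ± 0.07 (SE) in SC (adjusted p = 0.00783), −0.44 ± 0.09 in EE (adjusted p = 0.0160) and −0.41 ± 0.06 averaged (adjusted p = 1.3e-04). Without the second SC-housed CBP-ifKO the adjusted p in SC was 0.0519, and in EE it was 0.0566 without the third control and 0.0659 without the third CBP-ifKO. The averaged call held in 18 other fits (adjusted p at most 7.3e-04), but not when an absolute log2 change above 0.5 was also required, which left 0 of the 10 clock genes in SC, in EE and averaged.

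Neither partner of Arntl passed the test. Clock was 94.9, 105 and 99.7 CPM in SC-housed controls and 99.2, 102 and 105 in SC-housed CBP-ifKOs, and its averaged log2 change was 0.02 ± 0.04 (adjusted p = 0.785, and between 0.00 and 0.05 with 1 mouse left out). Npas2, which can stand in for Clock in forebrain neurons, was 30.5, 26.9 and 28.4 CPM in SC-housed controls and 30.3, 27.8 and 27.0 in SC-housed CBP-ifKOs, which overlapped. In EE its values were 32.9, 30.8 and 29.5 in controls and 27.0, 26.9 and 25.9 in CBP-ifKOs. The EE groups did not overlap, but the change of −0.22 ± 0.07 missed the threshold (adjusted p = 0.116). In EE the ranges of control and CBP-ifKO mice did not overlap for 4 of the 10 clock genes and for 25.3% of all genes, and in SC for 3 clock genes and 25.9% of all genes.

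Among the Per and Cry repressors, Cry2 fell and the others did not pass the test. Cry2 (chr2:92403646-92434043, minus strand) encodes a cryptochrome that binds and silences the Arntl and Clock pair. It was 145, 133 and 147 CPM in SC-housed controls and 128, 123 and 124 in SC-housed CBP-ifKOs. In EE it was 145, 150.4 and 144 in controls and 122, 114 and 118 in CBP-ifKOs. No CBP-ifKO reached the lowest control in either housing. The log2 change was −0.18 ± 0.05 in SC (adjusted p = 0.0834), −0.30 ± 0.06 in EE (adjusted p = 0.0140) and −0.25 ± 0.04 averaged (adjusted p = 3.3e-04). The SC change passed without the second control (adjusted p = 0.0104), and in EE the adjusted p rose above 0.05 without the third control (−0.31, adjusted p = 0.0511), the second CBP-ifKO (−0.28, 0.0583) or the third CBP-ifKO (−0.31, 0.0738), with changes of similar size. D930015M05Rik on the opposite strand covers 4.67% of the exonic bases of Cry2, and it is not stated whether counting used strand.

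Cry1, the other cryptochrome, was estimated in the other direction. It was 13.7, 11.2 and 12.4 CPM in SC-housed controls and 13.4, 15.5 and 12.2 in SC-housed CBP-ifKOs. In EE it was 11.9, 13.3 and 9.65 CPM in controls and 16.3, 12.8 and 11.2 in CBP-ifKOs. The groups overlapped in both housings, and the averaged log2 change was 0.17 ± 0.10 (adjusted p = 0.289), or 0.09 without the first EE-housed CBP-ifKO.

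The Per genes, which encode the period repressors and of which Per1 and Per2 also respond to neuronal activity and glucocorticoids in many cells, overlapped between genotypes. Per1 was 64.8, 62.3 and 88.8 CPM in SC-housed controls and 74.8, 67.4 and 61.5 in SC-housed CBP-ifKOs. Per2 was 41.2, 47.0 and 42.5 CPM and 48.3, 43.2 and 40.2 in the same groups. Per3 was 52.4, 66.1 and 54.9 CPM in these controls and 51.7, 58.3 and 56.2 in these CBP-ifKOs. In SC no Per gene separated the genotypes. In EE, controls spanned 60.9 to 83.9 CPM for Per1, 39.3 to 46.9 for Per2 and 47.6 to 60.4 for Per3, and CBP-ifKOs 57.7 to 66.4, 30.1 to 47.8 and 44.5 to 59.5. The averaged log2 changes were −0.13 ± 0.09 for Per1, −0.08 ± 0.09 for Per2 and −0.10 ± 0.08 for Per3, with adjusted p of 0.389, 0.606 and 0.462. Leaving out 1 mouse moved them from −0.18 to −0.03 for Per1 (the latter without SC-housed control 3), from −0.17 to −0.00 for Per2 (without EE-housed CBP-ifKO 1 and 2 in turn) and from −0.17 to −0.04 for Per3 (without EE-housed CBP-ifKO 1 and SC-housed control 2 in turn).

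Nr1d1 (chr11:98767932-98775333, minus strand), the nuclear receptor that represses Arntl, was also lower in CBP-ifKOs. Its CPM was 79.0, 71.1 and 66.3 in SC-housed controls and 62.8, 61.1 and 64.0 in SC-housed CBP-ifKOs. EE-housed values were 74.1, 79.8 and 78.7 in controls and 54.8, 60.7 and 61.6 in CBP-ifKOs. The gap between the groups was narrow in SC and wide in EE. The log2 change was −0.20 ± 0.07 in SC (adjusted p = 0.108), −0.38 ± 0.06 in EE (adjusted p = 0.00783) and −0.30 ± 0.05 averaged (adjusted p = 5.3e-04). Without the first control the SC change was −0.13 (adjusted p = 0.342). The EE call held in 13 other fits and the averaged call in 18, and both were lost when a log2 change above 0.5 was required. Thra on the opposite strand shares 8.55% of the exonic bases of Nr1d1.

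Dbp, the PAR-domain output factor, was 29.3, 21.6 and 22.7 CPM in SC-housed controls and 19.9, 22.1 and 20.4 in SC-housed CBP-ifKOs. EE-housed values were 27.0, 28.1 and 27.4 CPM in controls and 27.3, 17.1 and 22.5 in CBP-ifKOs. One EE-housed CBP-ifKO was at the level of the controls and the other 2 were below them. The averaged log2 change was −0.27 ± 0.10 (adjusted p = 0.0663). It did not pass in 13 of 18 other fits, with adjusted p up to 0.175, and was −0.19 without the second EE-housed CBP-ifKO. Without 1 mouse the change weakened to −0.09 in SC (first control) and −0.14 in EE (second CBP-ifKO). The averaged change passed with DESeq2 (0.0341), without a filter on low counts (2.1e-04), with the replicate block (0.0405), without the second SC-housed control (0.0411) and without the first EE-housed CBP-ifKO (0.0111). Exons of Sphk2 on the opposite strand cover 18% of the exonic bases of Dbp.

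Counted by housing, 1 clock gene was called in SC (Arntl) and 3 in EE (Arntl, Cry2 and Nr1d1), all lower. In SC 5.52% of all genes were called, 4.02% lower and 1.51% higher. In EE 4.57% were called, 3.53% lower and 1.03% higher. The median log2 change of the 10 clock genes was −0.07 in SC and −0.19 in EE, against −0.00 and 0.01 over all genes. The number called in SC was 0 without the second CBP-ifKO and 2 without the second control, and in EE it was 1 without the third control or the third CBP-ifKO. Whether the genotype change differed between housings was tested as an interaction, in which 0 of the 10 genes were called by edgeR or DESeq2. At an unadjusted p below 0.05 there was 1, Npas2 (−0.21 ± 0.10, unadjusted p = 0.0491 in edgeR), against 3.15% of all genes at that threshold, and the share of all genes called after adjustment was 0.00%.

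**Figure D2:**
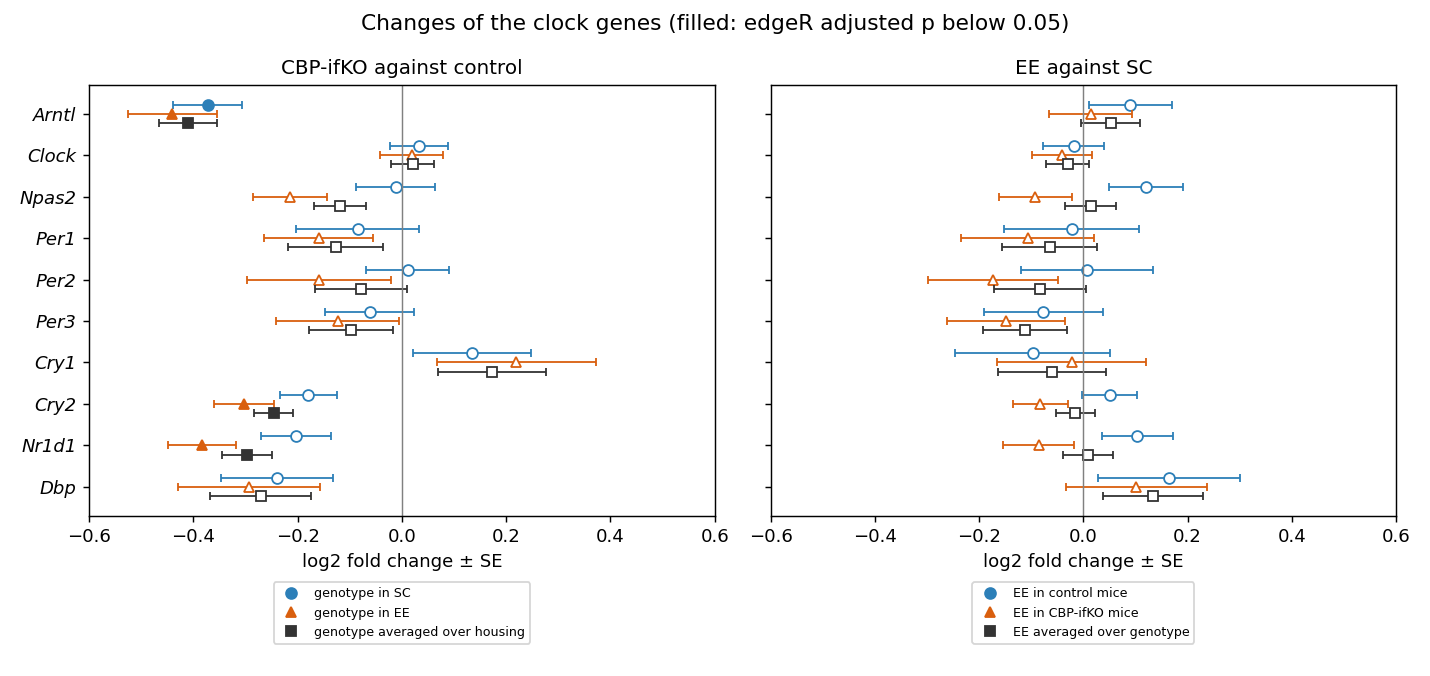
Log2 fold change with its SE (horizontal axes) of the 10 clock genes for CBP-ifKO against control (left) and EE against SC (right); filled symbols have an edgeR adjusted p below 0.05. Filled symbols stand only in the left panel, for Arntl in all 3 fits and for Cry2 and Nr1d1 in EE and averaged, and every estimate on the right lies between −0.17 and 0.16.

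The second question was whether a month of EE changes the clock genes. No clock gene passed the test in either genotype or averaged. In control mice 0 of the 10 were called by edgeR or DESeq2 and 0 had an unadjusted p below 0.05 (4.21% of all genes did), with log2 changes between −0.10 and 0.16, a median of 0.03 and a share of all genes called of 0.00%. In CBP-ifKOs the counts were again 0, 0 and 0 (8.59% of all genes had an unadjusted p below 0.05), with log2 changes between −0.17 and 0.10, a median of −0.08 and 0.0110% of all genes called. Averaged over genotypes the counts were 0, 0 and 0 (9.44% of all genes), with changes between −0.11 and 0.13 and 0.164% of all genes called.

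A few groups were nonetheless apart. Arntl was higher in each EE-housed control than in each SC-housed control, by 0.09 ± 0.08 on the log2 scale, while 9.11% of all genes had ranges that did not overlap in this comparison. Npas2 and Cry2 were lower in each EE-housed CBP-ifKO than in each SC-housed CBP-ifKO, by −0.09 ± 0.07 and −0.08 ± 0.05, and 15.9% of all genes did not overlap there. None of these 3 differences passed the test, with adjusted p of at least 0.695. The genotype and the EE comparisons share mice, so they are not independent of each other.

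Sampling time can be examined only through the genes themselves. Between mice of the same group, the Per genes and Dbp varied more than most genes of similar level, and Clock, Npas2 and Cry2 less. The SD within groups, in log2 CPM, was 0.20 for Per1, higher than in 99.2% of the 1825 genes in its decile of mean level, whose median was 0.08. It was 0.20 for Per2 (97.9%), 0.18 for Per3 (96.4%), 0.21 for Dbp (94.4%) and 0.21 for Cry1 (87.5%). The corresponding shares were 76.4% for Arntl, 59.5% for Nr1d1, 31.5% for Clock, 27.6% for Npas2 and 19.7% for Cry2. These SDs pool groups that differed. Per2 had an SD of 8.81 CPM in EE-housed CBP-ifKOs and of 3.035 to 4.07 in the other groups. Dbp had 5.07 CPM in EE-housed CBP-ifKOs and 0.537 to 4.13 in the others. Per1 had its highest SD, 14.6 CPM, in SC-housed controls and its lowest, 4.68 CPM, in EE-housed CBP-ifKOs. Over all 12 mice, genotypes and housings together, the highest exceeded the lowest by 1.71-fold for Dbp, 1.69-fold for Cry1 and 1.61-fold for Arntl. The fold was 1.60 for Per2 and 1.54 for Per1. The data hold no daily range to set these folds against.

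**Figure D3:**
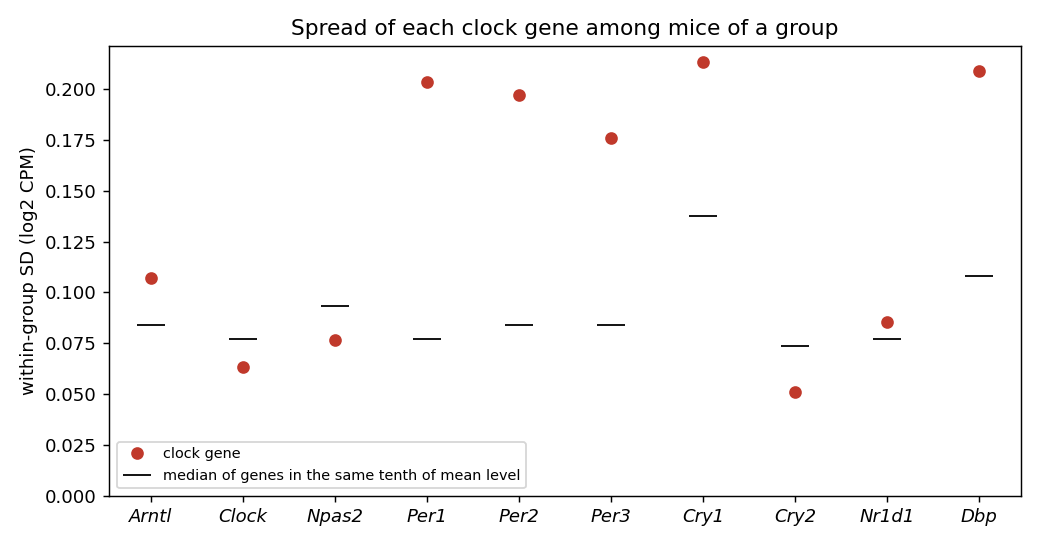
SD of log2 CPM among mice of the same group (vertical axis) for each clock gene (red points) and the median SD of genes of similar mean level (black bars). Per1, Per2, Per3 and Dbp stand at about 0.18 to 0.21, and Clock, Npas2 and Cry2 stand under the bars.

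The log2 ratio of Dbp to Arntl, which run in opposite phase, was −0.70, −1.01 and −1.09 in SC-housed controls and −0.86, −0.63 and −0.87 in SC-housed CBP-ifKOs. It was −0.88, −0.84 and −0.82 in EE-housed controls and −0.20, −1.23 and −0.74 in EE-housed CBP-ifKOs. The 4 groups overlapped, and the EE-housed CBP-ifKOs held both extremes. The first of these mice had the lowest Arntl and Nr1d1 and the highest Per1, Per2, Per3, Cry1, Cry2 and Dbp of its group.

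Across the 12 mice, with each value taken as a difference from its group mean, 45 pairs of clock genes were compared by a permutation test over all 1296 orders of mice within groups, whose smallest possible two-sided p is 7.7e-04. No pair passed Benjamini-Hochberg adjustment, and 3 had an unadjusted p below 0.05, each with an adjusted p of 0.671. Arntl ran against Per2 (Pearson r = −0.83, permutation p = 0.0448; Spearman rho = −0.69, permutation p = 0.0563) and against Per3 (r = −0.78, permutation p = 0.0340; rho = −0.62, permutation p = 0.0764). Per1 ran with Cry2 (r = 0.73, permutation p = 0.0432; rho = 0.69, permutation p = 0.0424). Without the 2 mice farthest from the median of Per2, Per3 and Per1 in these 3 pairs, r was −0.45, −0.50 and 0.64. Dbp against Arntl gave r = −0.59 (permutation p = 0.336, adjusted p = 0.879), and 0.23 without the 2 mice farthest from the median of Arntl.

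**Figure D4:**
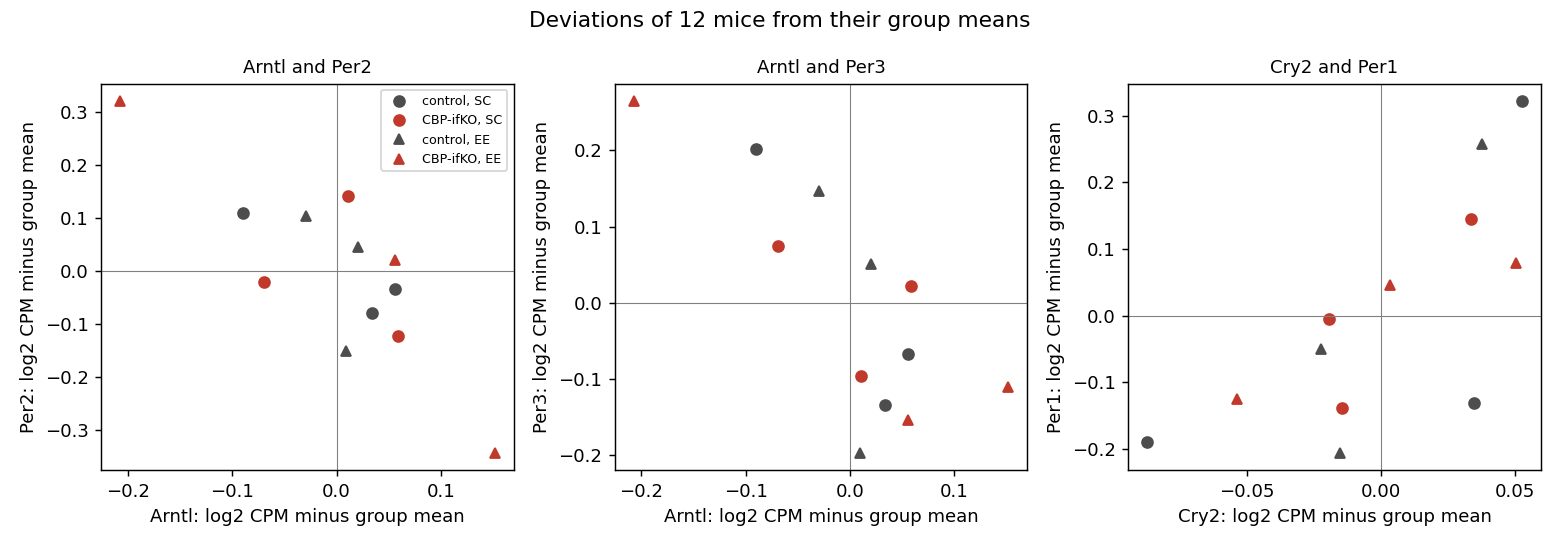
Difference of each of the 12 mice from its group mean in log2 CPM for Per2 against Arntl, Per3 against Arntl, and Per1 against Cry2 (the last-named gene on the horizontal axis); circles are SC, triangles EE, grey controls and red CBP-ifKOs. In the first 2 panels 1 EE-housed CBP-ifKO lies at the upper left, with the lowest Arntl difference and the highest Per2 and Per3 differences.

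By the same measure, and as a description with no test, the genes most like Arntl among 15008 genes of at least 1 CPM were Hhex, Adgrf4, Rbm45, Dmrtc1a and Vmn2r1 (r between 0.92 and 0.95 over 12 mice). The least like it were Cfap300, Stc1, Fmo2, Ddx4 and Mterf3 (r between −0.96 and −0.90), and Per2 and Per3 ranked 29th and 72nd from the bottom. Of the other clock genes, Dbp (r = −0.59), Cry1 (−0.41), Cry2 (−0.10) and Per1 (−0.02) were negative. Npas2 (0.13), Clock (0.17) and Nr1d1 (0.48) were positive. The genes most like Dbp were Cpe, S100a6, Donson, Rab1a and Wdr62 (r between 0.90 and 0.93), and the least like it Trim68, Wdr95, Pcsk7, Gpc6 and Spag1 (r between −0.96 and −0.92).

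A list of 25 further clock, regulator and output genes, all tested, gave changes in both directions. Averaged over housing, 4 were higher in CBP-ifKOs (Arntl2, Sirt1, Cirbp and Rora), 5 were lower (Usp2, Bhlhe41, Hlf, Noct and Fbxw11) and 16 did not pass. Over all genes 6.64% were called higher and 10.3% lower in that comparison. The list's median log2 change was 0.00, as over all genes. In SC 3 were higher (Arntl2, Sirt1 and Cirbp) and 2 lower (Usp2 and Bhlhe41), and in EE 2 were higher (Arntl2 and Sirt1) and 1 lower (Usp2). Over all genes 5.52% were called in SC and 4.57% in EE.

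Arntl2, the close relative of Arntl, was 15.4, 16.2 and 14.6 CPM in SC-housed controls and 21.5, 22 and 19.8 in SC-housed CBP-ifKOs. In EE it was 15.4, 17.98 and 16.1 CPM in controls and 20.5, 20.2 and 21.5 in CBP-ifKOs. Every CBP-ifKO was above every control, opposite to Arntl, with an averaged log2 change of 0.39 ± 0.06 (adjusted p = 2.1e-04). For this gene and those below, the share of all genes apart in this way over both housings was not computed. The averaged call held in 18 of 18 other fits. No gene named from this list had a called genotype change above 0.5 in absolute log2, so none passed with that requirement. The Arntl2 call in EE held in 6 of 13 other fits and was lost with another scaling (0.0513), with CBP-ifKO counts halved (0.0533) and without each mouse other than the second control (up to 0.178).

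Rora, an activator of Arntl through the ROR element, rose by 0.24 ± 0.06 on the log2 scale (adjusted p = 0.00852), and its CPM was 31.9 to 39.9 in the 6 controls and 40.6 to 45.5 in the 6 CBP-ifKOs. Nr1d2, the relative of Nr1d1, was 94.1 ± 6.52 CPM in SC-housed controls, 97.1 ± 0.650 in SC-housed CBP-ifKOs, 91.3 ± 5.79 in EE-housed controls and 105 ± 15.5 in EE-housed CBP-ifKOs (SD, n = 3). Its averaged change of 0.12 ± 0.06 did not pass (adjusted p = 0.201). Sirt1, a deacetylase that acts on clock proteins, rose by 0.35 ± 0.06 (adjusted p = 5.3e-04), and Cirbp, a cold-inducible RNA-binding protein, by 0.27 ± 0.05 (adjusted p = 0.00143). The Sirt1 call in SC was lost without CBP-ifKO 1 (0.0785) or 3 (0.0730), and in EE with CBP-ifKO counts halved (0.0506) and without each mouse other than the second control (up to 0.160). The Cirbp call in SC was lost without control 1 or 3 or CBP-ifKO 2 or 3 (up to 0.116).

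Usp2, a deubiquitinase driven by the clock in many tissues, was 59.5, 52.1 and 60.9 CPM in SC-housed controls and 44.3, 44.3 and 44.7 in SC-housed CBP-ifKOs. EE-housed values were 63.0, 63.8 and 62.5 CPM in controls and 50.9, 42.1 and 44.7 in CBP-ifKOs. It was lower in all 6 CBP-ifKOs, by −0.42 ± 0.05 averaged (adjusted p = 5.2e-05, and at most 3.4e-04 in 18 other fits). Its SC call was lost without the third control (0.0540).

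Hlf, a relative of Dbp, fell by −0.25 ± 0.05 (adjusted p = 0.00534), the repressor Bhlhe41 by −0.34 ± 0.08 (adjusted p = 0.00600) and Noct, which encodes nocturnin, by −0.20 ± 0.04 (adjusted p = 0.00476). Exons of an opposite-strand gene, Gm43909, cover 19% of those of Bhlhe41, whose call in SC was lost without the first control or any 1 CBP-ifKO (up to 0.0969). Fbxw11, of a ubiquitin ligase that targets period proteins, changed by −0.12 ± 0.03 (adjusted p = 0.0266), a call that was lost without any 1 of 6 mice (SC-housed control 3, SC-housed CBP-ifKO 1 or 3, EE-housed control 3, EE-housed CBP-ifKO 1 or 3), with adjusted p up to 0.0778. The genes Csnk1d and Csnk1e encode casein kinases that phosphorylate period proteins. Csnk1d and Csnk1e changed by 0.00 ± 0.03 and 0.08 ± 0.04 and did not pass.

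**Figure D5:**
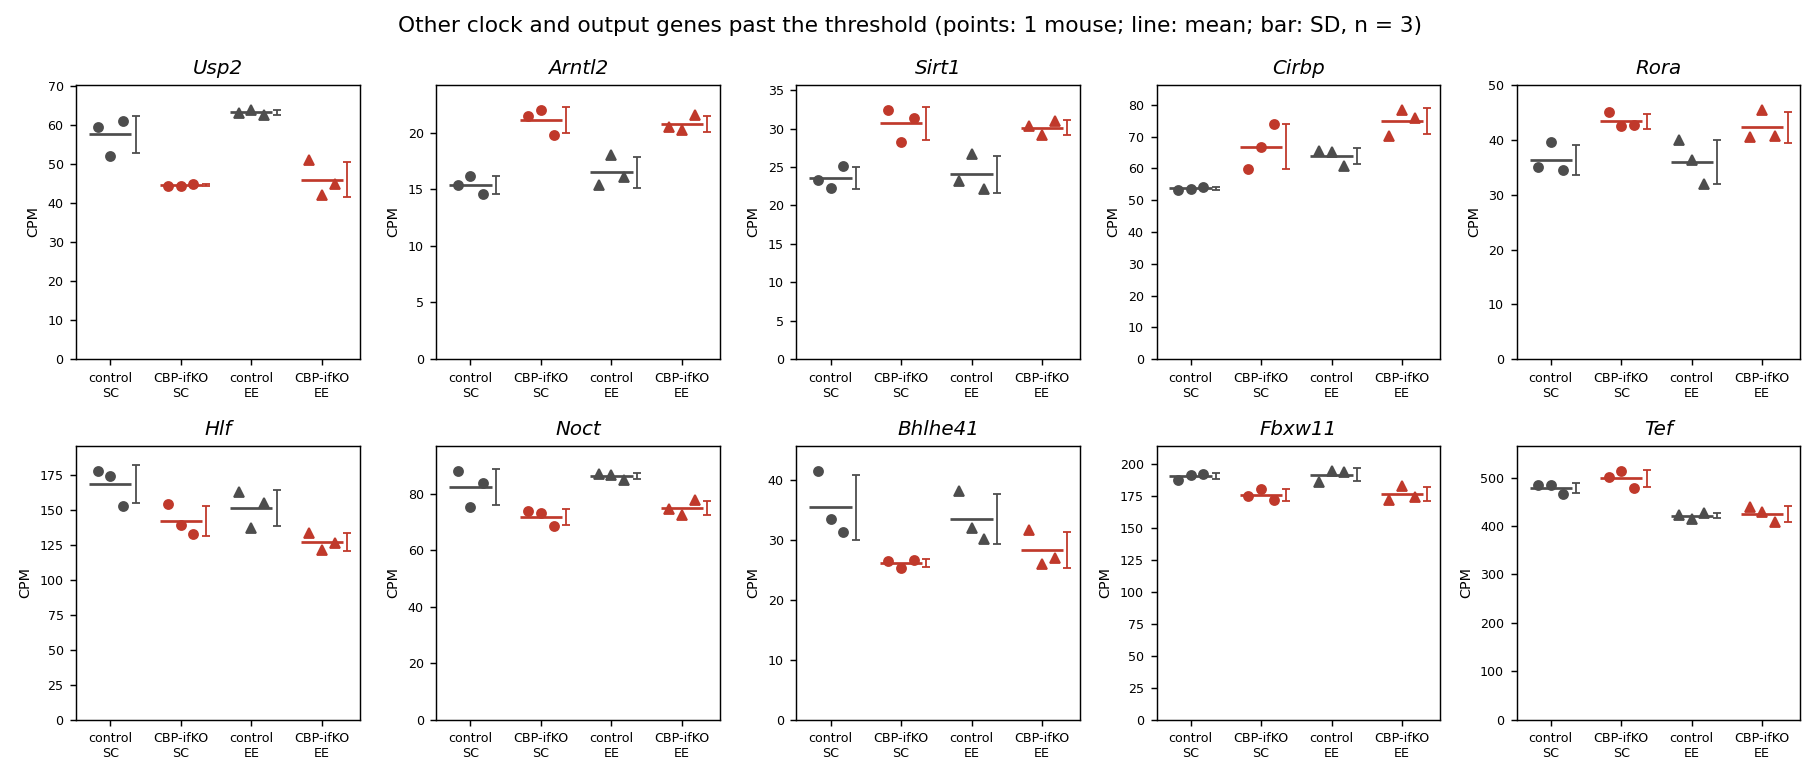
CPM (vertical axes from 0) of the 10 further clock and output genes that passed a test, in every mouse of the 4 groups; points are single mice, lines means and bars the SD of 3 mice. Usp2 is lower and Arntl2 higher in every CBP-ifKO, and Tef is lower in every EE-housed mouse than in every SC-housed mouse.

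In the averaged EE comparison 0.164% of all genes were called. Tef, the third PAR-domain factor beside Dbp and Hlf, was the only gene of this list called for EE, and only in that comparison. Its CPM was 484, 485 and 466 in SC-housed controls and 502, 514 and 479.5 in SC-housed CBP-ifKOs. In EE it was 422, 415 and 428 CPM in controls and 439.7, 428 and 408 in CBP-ifKOs. All 6 EE-housed mice were below all 6 SC-housed mice, by −0.21 ± 0.03 on the log2 scale (adjusted p = 0.0190). How many of all genes were apart in this way was not computed. Within 1 genotype the housings did not overlap for 9.11% (controls) and 15.9% (CBP-ifKOs) of all genes. The call held in 13 of 18 other fits and was lost when a log2 change above 0.5 was required and without SC-housed CBP-ifKO 1 (0.0730) or 2 (0.0909), EE-housed control 1 (0.0540), the library rich in choroid plexus markers, EE-housed control 3 (0.0542) or EE-housed CBP-ifKO 3 (0.0803). Hlf changed by −0.16 ± 0.05 with EE (adjusted p = 0.364) and Dbp by 0.13 ± 0.10 (adjusted p = 0.699).

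Lists of genes that respond to inputs of Per transcription were also tested, in a genotype comparison that called 16.9% of all genes. Of 12 immediate early genes, Egr3 was lower in CBP-ifKOs (averaged −0.41 ± 0.07, adjusted p = 0.0011) and 11 did not pass, and none passed for EE. Of 8 glucocorticoid-responsive genes, Cdkn1a was lower in the averaged genotype comparison (−0.45 ± 0.13, adjusted p = 0.0307) and 7 did not pass, and none passed for EE. The Cdkn1a call was lost without any 1 of 6 mice (SC-housed control 3, SC-housed CBP-ifKO 3, EE-housed control 1 or 3, EE-housed CBP-ifKO 1 or 2), with adjusted p up to 0.0984.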

How the data were processed

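Hippocampal RNA was sequenced by the authors as 50-base single-end reads. Quality control used FastQC 0.11.8 and Trim Galore 0.6.4, alignment to mm10 (GRCm38) used STAR 2.6.1, and alignments of low mapping quality were removed, per the labels and the study's methods. The authors counted reads in exons with Rsubread on an Ensembl GRCm38 annotation and deposited these counts without normalization. The library names mark the 2 runs of each of 12 mice as merged, so a mouse is 1 replicate. Every count of the CBP-ifKO libraries was even, so whether each holds 2 different runs cannot be told from the labels. The deposited gene length, in bases, was used only for CPM per kilobase. Of 55471 genes, 55144 were matched to a symbol.

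Analysis of the deposited counts used R 4.3.3 and edgeR 4.0.16. After the filterByExpr filter and TMM scaling, groups were compared by the quasi-likelihood F test with 1 coefficient per group and Benjamini-Hochberg adjustment at 0.05. Genotypes were compared in the 6 mice of a housing (17532 genes in SC, 17625 in EE), and averaged contrasts, EE and the interaction in all 12 mice (18251 genes). CPM are counts divided by the TMM-scaled library size, and log2 CPM carry a prior count of 2. The p-values of this test set a difference between groups against the spread between mice. The procedure was tested on simulated data. DESeq2 1.42.0 and the other alternatives are given in the closing section. Positions and exon overlaps come from the GENCODE annotation of GRCm38, and promoter windows from RefSeq.

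The clock genes and the lists were chosen with earlier results of these data known. The text names the 10 clock genes throughout, genes of the lists past the threshold, and the 5 genes most and the 5 least like Arntl and Dbp. Nr1d2, Csnk1d, Csnk1e and the EE values of Hlf were named after their values were seen. The replicate numbers were not taken to pair the mice: not every same-numbered pair of mice deviated together from the group means (correlations from −0.07 to 0.30). Same-numbered pairs were all positive between SC-housed and EE-housed controls (mean 0.18, against −0.09 for different numbers). They were also all positive between EE-housed controls and EE-housed CBP-ifKOs (0.09 against −0.05). Elsewhere the means of same-numbered pairs lay between −0.02 and 0.04. Fits with a replicate block are given in the closing section.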

Additional observations from a re-analysis of the deposited data

How the results depend on the processing

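The counts of calls, the changes of named genes and the number of correlated pairs were recomputed under other settings and without each mouse. Levels per kilobase, spread, the ratio of Dbp to Arntl and likeness were computed in 1 way. With a threshold of 0.5 on the absolute log2 change, 0 clock genes were called in SC, EE or averaged, and 283, 276 and 523 genes in all, with 6 for EE averaged. Without a filter on low counts, 2 clock genes were called in SC, where Nr1d1 joined Arntl (adjusted p = 0.0471), Dbp passed in EE (0.0179) and averaged (2.1e-04), and 1512 genes in all in SC, 1677 in EE, 145 for EE in controls, 247 for EE in CBP-ifKOs, 334 for EE averaged and 110 for the interaction. DESeq2 called 1296 genes in EE, and 15, 54 and 158 for EE in controls, in CBP-ifKOs and averaged. With all 12 mice fitted, 1293 genes were called in EE, and with the 6 mice of a genotype 1 for EE in controls and 21 in CBP-ifKOs. Halved CBP-ifKO counts left 0 genes for EE in CBP-ifKOs. Among the 10 clock genes, another scaling, a filter of 1 CPM and halving changed no call. The other set of mice could not be used for averaged contrasts and the interaction. The cause of these shifts was not tested.

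Leaving out 1 mouse at a time gave 0 to 2 clock genes in SC, 1 to 3 in EE and 3 to 4 averaged. For all genes it gave 399 to 1908 in SC, 285 to 1016 in EE, 2459 to 3294 averaged, 0 to 5 for EE in controls, 0 for EE in CBP-ifKOs and 7 to 42 for EE averaged. Small SC changes turned sign in this way: Per2 (−0.06 to 0.07, with −0.02 and −0.00 between), Npas2 (−0.06 to 0.04, with 0.00 and 0.02 between), Per3 (−0.12 to 0.04) and Per1 (−0.18 to 0.10), and Clock in EE (−0.01 to 0.06). Without a filter, Per2 in SC and Clock in EE were −0.00. With the replicate block, 17 genes were called for EE in CBP-ifKOs, 48 for EE averaged, and Dbp averaged (adjusted p = 0.0405), and no other call of a clock gene changed. Values not centred within groups gave 3 pairs of clock genes past adjustment.

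With 3 mice a group, some calls within a housing were lost when 1 mouse was left out, as given beside them, while those of Nr1d1 and Usp2 in EE and Arntl2 in SC held in 13 other fits, though not with the threshold of 0.5. The hour of collection is not given in the labels. Even counts in CBP-ifKO libraries leave their counting precision unknown. Because they follow genotype, CBP loss and a difference in how these libraries were merged or counted cannot be told apart, with or without halving.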

Other observations

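Mean levels of the immediate early and the glucocorticoid-responsive genes were set against each clock gene across the 12 mice, as differences from group means, in 20 relations added after the data were seen. None passed adjustment (smallest adjusted p = 0.706) and 0 had an unadjusted permutation p below 0.05. Per1 and the immediate early genes gave r = 0.65 (permutation p = 0.0841; rho = 0.59, permutation p = 0.0826), and 0.71 without 2 mice. Nr1d1 and the glucocorticoid-responsive genes gave r = −0.68 (permutation p = 0.0803; rho = −0.60, permutation p = 0.128), and −0.30 without 2 mice.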
